A study of Mus musculus with 8 samples.

Results

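Erythrocyte microRNAs (miRNAs) are the small RNAs that red blood cells and their precursors hold in large amounts. The 4 described here, mmu-miR-451a, mmu-miR-144-3p, mmu-miR-144-5p and mmu-miR-486a-5p (written without the mouse prefix mmu from here on), were taken by name from the array, with all their probes (8 probes). They are 4 of 1023 mouse miRNA names and 8 of 2645 probes on the array. The arrays held RNA from total kidney of CD-1 mice, which are outbred. Tacrolimus had been given at 1 mg/kg/day over 28 days to one group (4 arrays), and physiological serum to the control group (4 arrays). Tacrolimus is a calcineurin inhibitor used against transplant rejection, with kidney injury as a known side effect. The labels do not tie the numbered replicates to individual mice, so p-values describe the spread between these arrays, which may be technical.

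miR-451a and miR-144 are cut from one primary transcript that the erythroid transcription factor GATA1 switches on during red cell formation. miR-144 follows the usual route through the nuclease Dicer and gives an arm from each side of its hairpin. miR-451a is made without Dicer, since its short hairpin is cut by the Argonaute protein that then carries it. miR-486 is encoded in an intron of ankyrin-1, a gene of the red cell membrane skeleton that is also active in striated muscle. Mature red cells have no nucleus and keep these miRNAs from their precursors, so in a solid organ the miRNAs are known mainly as a sign of the blood it holds. In bulk tissue, fewer cells of a type and less of an RNA per cell cannot be told apart.

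The mature sequences are shown with the seed (bases 2 to 8) in capitals, because the seed differed in all 3 and no pair of them is a seed family. RefSeq sequences (GRCm38.p6) matched 3 of the 4 members.
miR-451a: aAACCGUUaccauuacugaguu
miR-144-3p: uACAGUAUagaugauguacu
miR-144-5p: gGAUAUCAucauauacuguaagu

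The hairpins of Mir144 (chr11:78073005-78073070, plus strand) and Mir451a (chr11:78073170-78073241, plus strand) lie 99 bases apart in GRCm38.p6. They are shown with the mature miRNAs in capitals, because they set apart the processing of these neighbours.
Mir144: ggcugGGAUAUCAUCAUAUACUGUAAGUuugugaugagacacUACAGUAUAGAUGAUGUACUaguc
Mir451a: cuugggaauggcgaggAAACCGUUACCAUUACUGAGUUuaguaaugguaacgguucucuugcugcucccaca
In the minimum free energy fold from RNAfold, both arms of miR-144 lay outside the terminal loop of 6 bases. Of the 22 bases of miR-451a, 18 lay on the 5′ side of the stem and the other 4 filled the terminal loop. Mir451b covers the same coordinates as Mir451a on the minus strand, and no probe of the array carried the name miR-451b.

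Each member had a pair of probes that differed by 1 base at the 3′ end, in capitals in the longer probe below. They are shown because both probes of a pair read the same molecules and so are not replicates. For miR-451a, miR-144-3p and miR-144-5p the added base pairs with the first base of the miRNA.
miR-451a, shorter probe: aactcagtaatggtaacggtt
miR-451a, longer probe: aactcagtaatggtaacggttT
miR-144-3p, shorter probe: agtacatcatctatactgt
miR-144-3p, longer probe: agtacatcatctatactgtA
miR-144-5p, shorter probe: acttacagtatatgatgatatc
miR-144-5p, longer probe: acttacagtatatgatgatatcC
miR-486a-5p, shorter probe: ctcggggcagctc
miR-486a-5p, longer probe: ctcggggcagctcA
The longer probes of miR-451a, miR-144-3p and miR-144-5p covered every base of the miRNA, while those of miR-486a-5p held 13 and 14 bases. The array's annotation lists the miR-486a-5p probes also under miR-3107, the older name of miR-486b, so signal from these 2 miRNAs (listed on chromosome 8) cannot be told apart. The longer probe was the brighter one for all 4 members and stands for the miRNA below.

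Between 9.60% and 15.2% of probes were detected per array, and 194 of the 1023 miRNAs were tested, those detected by their brightest probe on 4 or more of the 8 arrays. On tacrolimus 4 the fewest miRNAs were detected (147) and the negative control spots varied most (SD 20.3 intensity units). Control 1 (10.5) and control 3 (9.69) followed, and the other 5 arrays lay between 4.45 and 5.46. Each row of the slide carried a single group, so an effect of the row and one of tacrolimus cannot be told apart. Of the 4 members, 3 were tested and miR-144-5p was not. Signals are given in log2 relative to each array's 75th percentile over the commonly detected probes, which is 0, with a floor at -5.96.

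**Figure D1:**
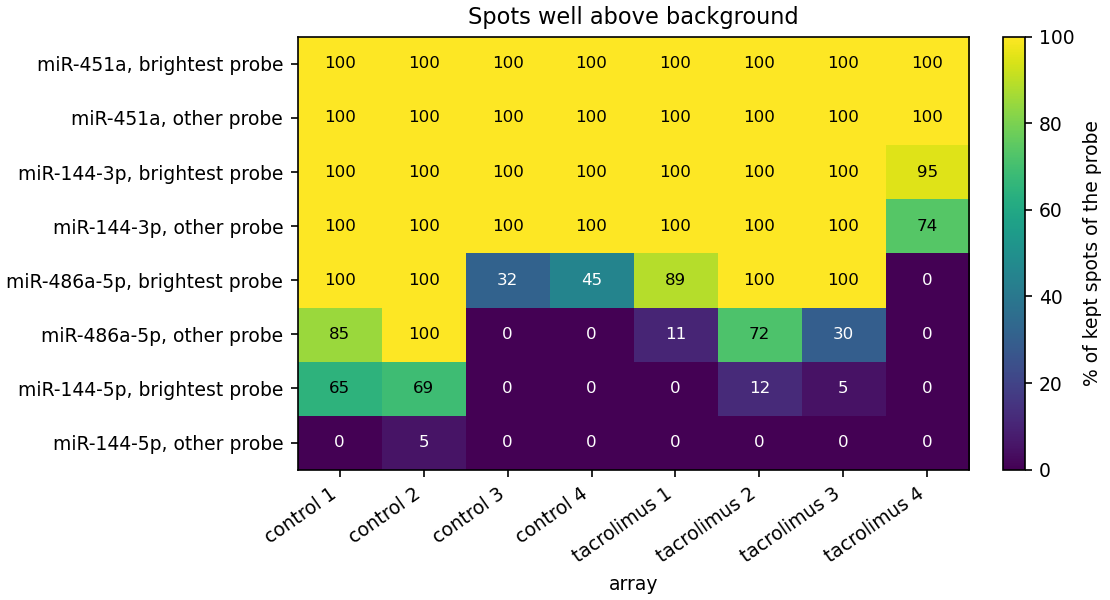
Share of the kept spots of each erythrocyte miRNA probe that the scanner software marked as well above background, in percent, for the 8 arrays (columns) and the 8 probes (rows). Both miR-451a probes were at 100 on every array, whereas the brightest miR-486a-5p probe ranged from 0 (tacrolimus 4) to 100 and the brightest miR-144-5p probe passed 50 only on control 1 and control 2.

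miR-451a, the Dicer-independent miRNA of the cluster, was bright throughout, with 100% of its kept spots well above background on all 8 arrays. The processed intensity of its brightest probe was 14130 on control 1, 8128 on control 2, 4517 on control 3 and 3504 on control 4. In the tacrolimus kidneys it was 5197, 5304, 3956 and 3971 on arrays 1 to 4. After scaling, the control arrays stood at 2.48, 2.09, 1.66 and 1.01 and the tacrolimus arrays at 1.22, 1.22, 1.26 and 0.84. Controls 1 to 3 were thus above every tacrolimus array, control 4 lay below 3 of them, and the groups overlapped. The mean was 1.81 ± 0.63 in control and 1.14 ± 0.20 in tacrolimus kidneys (SD, n = 4 arrays each). The difference of -0.67 (SE 0.272, 95% interval -1.29 to -0.06), or 0.627 times the control level, had an adjusted p of 0.273 in limma and did not pass. The shorter probe gave -0.66.

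miR-144-3p, the main arm of miR-144, was dimmer but detected on all 8 arrays. Its processed intensity was 445, 249, 150.3 and 107 on control arrays 1 to 4 and 157, 167, 127 and 146 on tacrolimus arrays 1 to 4. Scaled, the control arrays stood at -2.51, -2.94, -3.25 and -4.02 and the tacrolimus arrays at -3.83, -3.76, -3.70 and -3.92. Control 4 was here the lowest of all 8 arrays, and the other controls were above every tacrolimus array. By the shorter probe, tacrolimus 4 (-4.34) lay below control 4 (-4.20), so which array was lowest depended on the probe. The mean was -3.18 ± 0.64 in control and -3.80 ± 0.09 in tacrolimus kidneys (SD, n = 4 each). The difference was -0.62 (SE 0.267, 95% interval -1.22 to -0.02), or 0.649 times the control level, and did not pass (adjusted p = 0.301, limma). The shorter probe gave -0.66. On tacrolimus 4 the spots of the brightest probe varied most, with a coefficient of variation of 35.6%.

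miR-486a-5p, the miRNA of the ankyrin-1 intron, was dim. Its processed intensity was 116, 68.2, 49.1 and 29.9 on control arrays 1 to 4 and 41.3, 48.04, 39.3 and 33.0 on tacrolimus arrays 1 to 4. It counted as detected on control 1 and 2 and on tacrolimus 1, 2 and 3, and had 0 of 17 kept spots well above background on tacrolimus 4. Scaled, the controls stood at -4.45, -4.81, -4.86 and -5.86 and the tacrolimus arrays at -5.76, -5.56, -5.39 and the floor of -5.96. Controls 1 to 3 were again on top, and the groups overlapped through control 4. Control 3, however, was not detected and lay under the lowest detected value of its own array (-4.84), so its place is uncertain. The mean was -4.996 ± 0.61 in control and -5.67 ± 0.25 in tacrolimus kidneys (SD, n = 4 each), a difference of -0.67 (SE 0.270, 95% interval -1.28 to -0.06, adjusted p = 0.273, limma). The size depended on how dim spots were treated: it was -0.19 with a floor 2 times as high, -0.34 with normexp background correction and -2.01 in the authors' deposited value table, which lists tacrolimus 4 at 0.1. The shorter probe, at the floor on all 4 tacrolimus arrays, gave -0.36.

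miR-144-5p, the partner arm of miR-144-3p, was at the edge of detection and was not among the 194 tested miRNAs. Its brightest probe gave 59.4, 31.02, 19.9 and 14.5 on control arrays 1 to 4 and 19.2, 24.1, 15.8 and 22.2 on tacrolimus arrays 1 to 4 (processed intensity). It counted as detected on control 1 and control 2, with 11 of 17 and 11 of 16 kept spots well above background, and on 0 of the 4 tacrolimus arrays. Only control 1, at -5.41, stood clearly above the floor after scaling. The 6 arrays on which it was not detected were all at the floor, and the difference was -0.14. With no filter on detection, over 1023 miRNAs, limma gave it an SE of 0.136 and an adjusted p of 0.393. The bound for the undetected group gave no fold. Its shorter probe was detected on 0 of the 8 arrays.

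**Figure D2:**
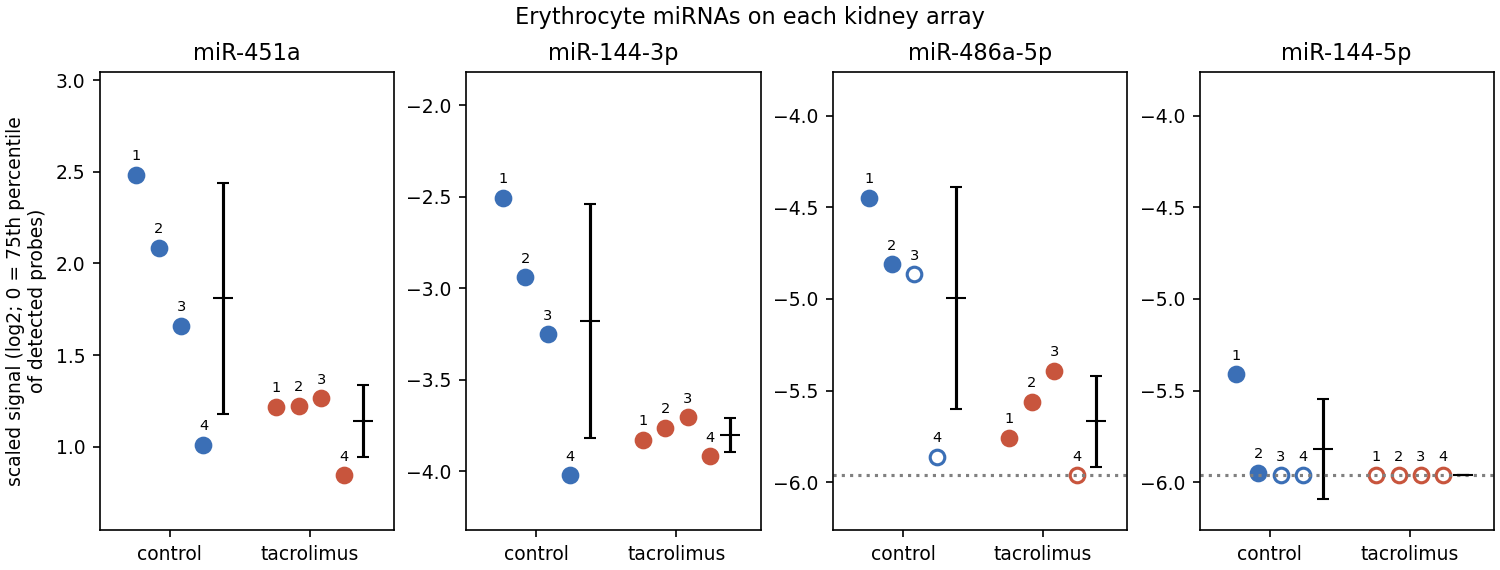
Scaled signal (log2, 0 is the 75th percentile of the detected probes) of the brightest probe of each erythrocyte miRNA on the 4 control (blue) and 4 tacrolimus (red) arrays, numbered by replicate. Filled points are detected and open points not, bars are mean ± SD, the dotted line is the floor of -5.96, and every panel spans the same number of log2 units. Controls 1 to 3 lay above all tacrolimus arrays for miR-451a, miR-144-3p and miR-486a-5p, and control 4 lay among or below them. For miR-486a-5p control 3 was not detected, so its place there is uncertain.

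None of the 3 tested members passed an adjusted p of 0.05 in limma (0 of 3), where 3.09% of the 194 tested miRNAs did, and 0 of the 194 were called lower. At an unadjusted p under 0.05 (limma) all 3 members were lower after tacrolimus, against 4.64% of all tested miRNAs, members included, called lower at that level. All 3 members were above 0.05 (unadjusted, limma) without control 1, control 2, tacrolimus 1 or tacrolimus 4. They were also above it without both control 1 and tacrolimus 4, with a floor 2 times as high and with no filter. The same held with the 75th percentile of all probes and in the authors' deposited value table. Some members but not all were above it with no scaling, total gene signal or outlier spots kept, and without control 3, tacrolimus 2 or tacrolimus 3. All stayed under it with the median of detected probes, quantile normalization, normexp, probes averaged and no floor. So they did with the replicate block, with trend and robust estimation and without control 4. These 3 members are not independent, as miR-451a and miR-144-3p come from one transcript and all 3 are known from the same blood cells. Their means were below control in 3 of 3, against 40.7% of the 194, with a median difference of -0.67 against 0.04 over all tested miRNAs. Only miR-551b-3p, at -1.15, had a lower difference than these 3, which ranked 2, 3 and 4 from the lowest of 194. The members were chosen with earlier results of these data known, so these shares and ranks are a description only. The groups did not overlap for 10.3% of the tested miRNAs (2.06% lower after tacrolimus) and for 0 of the 3 members.

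The call turned on control 4 for 2 of the 3. Without it, miR-144-3p passed at -0.90 and miR-486a-5p at -0.96 (each adjusted p = 0.0395, limma), while miR-451a stood at -0.94 (adjusted p = 0.0641, limma). Without control 1, the highest array of all 3, the differences were -0.45 for miR-451a, -0.40 for miR-144-3p and -0.49 for miR-486a-5p. Without both control 1 and tacrolimus 4, the 2 arrays with the widest negative control spread, they were -0.35, -0.36 and -0.39 (each adjusted p at least 0.465, limma). Each of the 4 columns of the slide carried a control and a tacrolimus array, and within columns 1 to 4 the miR-451a difference was -1.27, -0.86, -0.40 and -0.17. For miR-144-3p the same columns gave -1.32, -0.82, -0.45 and 0.10, and for miR-486a-5p -1.31, -0.75, -0.53 and -0.10. The positive miR-144-3p value in column 4 held for the longer probe only, since tacrolimus 4 lay below control 4 by the shorter one.

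**Figure D3:**
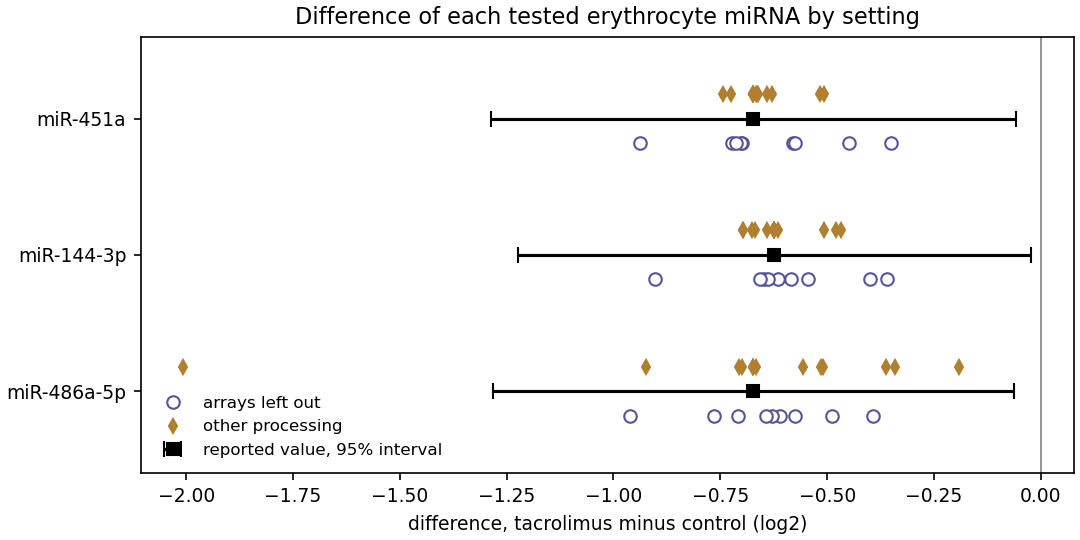
Difference of the 3 tested erythrocyte miRNAs, tacrolimus minus control (log2), as reported with its 95% interval (square), with arrays left out (circles) and with other processing (diamonds). All values lay below 0, from -0.94 to -0.35 for miR-451a, from -0.90 to -0.36 for miR-144-3p and from -2.01 to -0.19 for miR-486a-5p.

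The erythrocyte miRNAs differed more between control arrays than nearly any other tested miRNA. Each control array lay in its own slide column, so kidney, array and column cannot be told apart in this spread. The highest control array exceeded the lowest 2.78-fold for miR-451a, 2.86-fold for miR-144-3p and 2.67-fold for miR-486a-5p. For miR-486a-5p the lowest, control 4, was not detected and lay close to the floor, and control 3 was not detected either. Between tacrolimus arrays the same ratios were 1.34, 1.16 and 1.48, the last with tacrolimus 4 at the floor. The control SD of miR-144-3p, miR-451a and miR-486a-5p ranked 3, 4 and 5 of the 194 tested miRNAs, behind miR-342-3p and miR-494-3p, where the median SD was 0.14. In the tacrolimus arrays they ranked 124, 36 and 26, with a median of 0.12 over all tested miRNAs. The control SD was 6.91 times the tacrolimus SD for miR-144-3p, 3.21 times for miR-451a and 2.46 times for miR-486a-5p. The value of 6.91 held for the longer miR-144-3p probe only. By the shorter probe, the tacrolimus SD of miR-144-3p was 0.195, the ratio of SDs 3.07 and the highest tacrolimus array 1.35 times the lowest. For miR-451a the shorter probe gave a ratio of SDs of 3.27. Of all 194, 128 had the larger SD in control arrays.

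This contrast in spread was not tested, and it depended on the scaling and on control 4. The control SD of miR-451a was the larger one without scaling (0.90 against 0.23), with the median of detected probes (0.57 against 0.21), with quantile normalization (0.58 against 0.17) and with normexp (0.63 against 0.19). It was the smaller one when arrays were scaled to the 75th percentile of all probes (0.56 against 0.85), a percentile that falls on undetected probes. Under that scaling the control SD was also the smaller one for miR-144-3p (0.52 against 0.74) but not for miR-486a-5p (0.42 against 0.34). Without control 4 the control SD was 0.41 for miR-451a, 0.37 for miR-144-3p and 0.23 for miR-486a-5p. For miR-486a-5p that is below the tacrolimus SD of 0.25, so the contrast turned. Without tacrolimus 4 the tacrolimus SD was 0.02 for miR-451a, 0.06 for miR-144-3p and 0.18 for miR-486a-5p. The standard error over the spots of the brightest probe on an array was 0.0069 to 0.015 (log2) for miR-451a, 0.014 to 0.11 for miR-144-3p and 0.021 to 0.30 for miR-486a-5p. For miR-144-3p and miR-486a-5p the highest of these exceeded the SD between tacrolimus arrays.

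**Figure D4:**
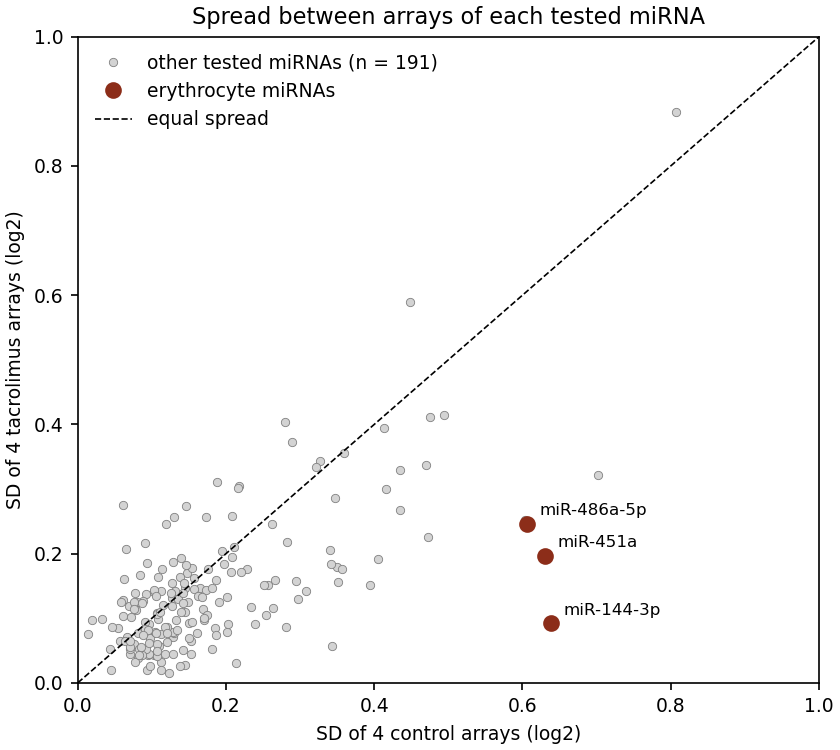
SD of the 4 control arrays (horizontal) against SD of the 4 tacrolimus arrays (vertical), in log2 units, for the 194 tested miRNAs, with a dashed line at equal spread. The 3 erythrocyte miRNAs (dark red) lay at control SDs of 0.61 to 0.64 and tacrolimus SDs of 0.09 to 0.25.

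The members moved together from array to array. Over the 8 arrays miR-451a correlated with miR-144-3p at Pearson's r = 0.987 (exact permutation p = 0.000347, adjusted over 3 relations 0.000347) and Spearman's rho = 0.976 (exact permutation p = 0.000397, adjusted 0.000397). With miR-486a-5p it correlated at r = 0.964 and rho = 1 (exact permutation p = 4.96e-05 for both, the smallest that 8 arrays allow, adjusted 0.000149). miR-144-3p and miR-486a-5p gave r = 0.968 (exact permutation p = 0.000198, adjusted 0.000298) and rho = 0.976 (p = 0.000397, exact permutation, adjusted 0.000397). On control 3, control 4 and tacrolimus 4 miR-486a-5p was not detected, and on tacrolimus 4 it was set to the floor. Its correlations and rank order thus rest in part on undetected values. Without control 1 and control 2, the arrays farthest from the median, r was 0.927, 0.956 and 0.968 for the same pairs over 6 arrays. Taken as deviations from the group means, r was 0.979, 0.938 and 0.948, with no p computed. The permutations mixed control and tacrolimus arrays, so the p-values above also take in the difference between the groups. A group of 4 is too small for a correlation of its own, and all these values share the scaling of each array.

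**Figure D5:**
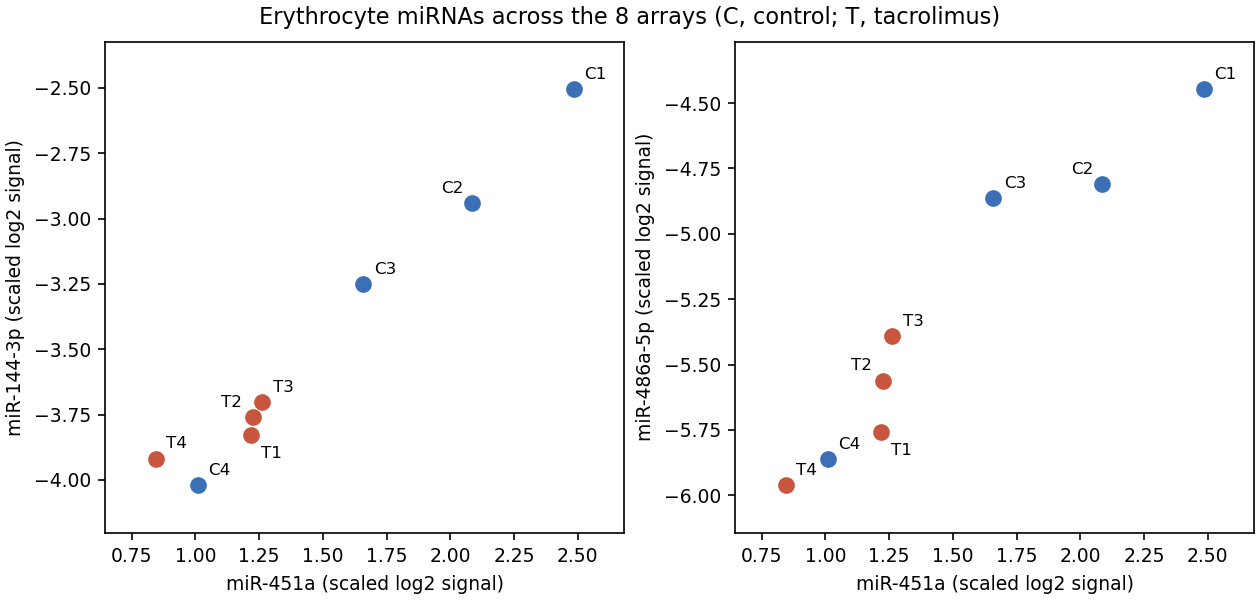
Scaled log2 signal of miR-144-3p (left) and miR-486a-5p (right) against that of miR-451a on the 8 arrays (C1 to C4, control, blue; T1 to T4, tacrolimus, red). Control 4 lay beside the tacrolimus arrays in both plots and controls 1 to 3 lay apart from them at higher signals (r = 0.987 and 0.964, n = 8). On C3, C4 and T4 miR-486a-5p was not detected.

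Among the other tested miRNAs, the pattern most like that of miR-451a over the 8 arrays was that of miR-532-3p (r = 0.88), followed by miR-93-5p (0.82), miR-1897-3p (0.73), miR-3473a (0.73) and miR-423-5p (0.73). The median r over the 193 other tested miRNAs was -0.08. Both members ranked above all of these. miR-532-3p and miR-1897-3p were dim, each detected on 4 arrays. In deviations from the group means, the highest values outside the members were those of miR-425-5p (r = 0.91), miR-93-5p (0.90), miR-25-3p (0.88), miR-142a-3p (0.86) and miR-532-3p (0.85). miR-93-5p and miR-25-3p belong to one cluster within the Mcm7 gene and are abundant in red cells as in many other cells. Their differences between groups were near 0, with -0.05 for miR-93-5p, 0.00 for miR-25-3p (0.00437 before rounding) and 0.00 for miR-425-5p (0.00226), and their control SDs were 0.15, 0.20 and 0.08. miR-142a-3p, a miRNA of all blood-forming cells, deviated like miR-451a within groups, but its mean differed by 0.64 the other way (SE 0.213, adjusted p = 0.191, limma).

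Other miRNAs abundant in red cells lay near the rest of the array. Of 21 such miRNAs, which many other cells also express, 17 were tested and 0 passed the threshold in either direction (limma). At an unadjusted p under 0.05 there were 2 of 17, where 15.5% of all 194 tested miRNAs passed in either direction. Of the 17, 13 lay above 0 and 4 below, against 115 and 79 of the 194, with a median of 0.06 against 0.04 over all tested miRNAs. The smallest p-values were those of miR-20b-5p at 0.20, let-7i-5p at 0.26, miR-210-3p at 0.36 and miR-185-5p at -0.12. Of the members' own relatives, miR-486a-3p and miR-486b-3p were detected on 0 arrays.

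Markers of other cells were measured beside the members. All 7 leukocyte miRNAs were tested, 0 passed the threshold and 7 lay above 0 (115 of all 194), with a median of 0.55. At an unadjusted p under 0.05 (limma) there were 4 of 7, all of them above 0, against 15.5% of the 194 in either direction. The 4 included the myeloid miR-223-3p at 0.61 (SE 0.161, adjusted p = 0.0911, limma) and miR-142a-5p at 0.55. They also held both arms of miR-142a, so the 4 are not independent. The summed signal of all 7 leukocyte miRNAs, in multiples of the detected-probe 75th percentile, was 0.583 to 0.880 in control and 0.856 to 1.20 in tacrolimus arrays. The leukocyte miRNAs thus stood on the other side of 0 from the erythrocyte miRNAs, and their part in the members' result was not tested. The megakaryocyte and platelet list, which shares miR-223-3p with the leukocytes and miR-126a with the endothelium, had a median of 0.06 over 3 and 0 calls. Of the 7 striated muscle miRNAs, the other tissue rich in miR-486, 6 were detected on no array, and miR-1a-3p on 0 control and 2 tacrolimus arrays. The liver marker miR-122-5p was detected on none (0). The kidney's own tubule miRNAs were detected on all arrays, with 5 of 5 tested, 0 passing the threshold and a median of 0.13. Of these 5, 4 lay above 0 and 1 below, and 1 had an unadjusted p under 0.05 (limma), miR-204-5p at 0.34. The endothelial miR-126a arms had a median of 0.01 over 2.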

How the data were processed

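Kidney RNA (0.1 µg, RNA integrity number 9, per the labels) was measured on one-colour Agilent miRNA arrays. The authors deposited spot intensities from Feature Extraction 10.7.3.1, less a fitted background surface per the file headers, with 0 or 1 flags for each spot, and a value table equal to its total gene signal in 100% of cells (tolerance 1e-06). The tool limma is among those in the submitters' processing notes, without a version or role. The array headers name mouse assembly mm9.

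Spots flagged as non-uniform or outliers were left out, and the rest averaged per probe (up to 20 spots). A probe was detected if at least 0.5 of its spots were well above background. Each array was divided by its own 75th percentile over the 252 probes that all 8 arrays detected, floored and put on the log2 scale. Groups were compared with limma 3.58.1 (R 4.3.3, lmFit and eBayes, two-sided) and Benjamini-Hochberg adjustment over 194 miRNAs at 0.05, a step tested on simulated data. Correlations used exact two-sided permutations (scipy 1.17.1), and hairpins were folded with RNAfold 2.7.2. The number of arrays limits the precision.

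Named were the 4 members, the 5 miRNAs most correlated with miR-451a by each measure, and up to 4 of each list by smallest p. miR-551b-3p, miR-342-3p, miR-494-3p and miR-1a-3p were named after their values were seen. Members and lists were chosen with earlier results of these data known.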

Additional observations from a re-analysis of the deposited data

Results flagged for a closer look

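The groups of 4 arrays examined were 24, for the 4 erythrocyte miRNAs and the 8 miRNAs most like miR-451a. Of these, 3 held an array far from the other 3. Chance would give 1.2 for independent groups without floored values. These miRNAs were chosen for their likeness and some values were at the floor, so the count cannot be read against that figure. For miR-451a, tacrolimus 4 stood at 0.84, a distance of -0.39 from the mean of the remaining arrays of its group. For miR-144-5p, control 1 stood at -5.41, or 0.55 above the mean of the other controls, 2 of which were at the floor. For miR-1897-3p, control 1 stood at -5.52, the lowest detected value of that array, or 0.42 above the mean of the others, which was close to the floor.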

How the results depend on the processing

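The differences of miR-451a and miR-144-3p lay below 0 in all 24 alternatives, and that of miR-486a-5p in all 23 that could test it. Detection on all 8 arrays left miR-486a-5p untested. Calls by adjusted p (limma) changed only without control 4, where miR-144-3p and miR-486a-5p passed. With 1 array left out, the differences ranged from -0.94 to -0.45 for miR-451a, from -0.90 to -0.40 for miR-144-3p and from -0.96 to -0.49 for miR-486a-5p. miR-144-5p, outside the 194 tested, moved from -0.14 to -0.68 with total gene signal, -2.05 in the authors' deposited value table and -0.58 with no floor, a setting chosen after seeing the data, and ranged from -0.19 to -0.0048 with 1 array left out. Its values under the floor are not ordered.

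Over all tested miRNAs, the 6 called in limma became 0 under other scaling (75th percentile of all probes or none), a floor 2 times as high or absent, no filter, and trend and robust estimation. They also became 0 with outlier spots kept, with probes averaged, with total gene signal and in the authors' deposited value table. At an unadjusted p under 0.05 these settings gave 1 to 31. The count was 8 with the median of detected probes (6 up, 2 down), 7 with quantile normalization (6 up, 1 down), 5 with detection on all 8 arrays, 1 with normexp, 3 without control 1 and tacrolimus 4, 6 without tacrolimus 3, and 0 to 2 without any other single array (22 to 30 at an unadjusted p under 0.05). The cause was not tested.

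Replicate numbers equal slide columns. Deviations of same-numbered arrays correlated at 0.0946 to 0.140, and 1 of 4 controls correlated best with its own number, so the numbers were not taken as pairs. With the replicate block 0 miRNAs passed in limma (31 at an unadjusted p under 0.05), and the differences are the same by construction. The SE went from 0.272 to 0.179 for miR-451a (adjusted p = 0.114, limma), from 0.267 to 0.214 for miR-144-3p (0.223) and from 0.270 to 0.183 for miR-486a-5p (0.114).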
